A study of Homo sapiens with 3 samples.

Results

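Serum amyloid A proteins are small apolipoproteins, and the human genome holds the genes SAA1, SAA2 and SAA4 beside one another on chromosome 11. These 3 genes were followed in the human lung adenocarcinoma cell line A549, treated with cordycepin, an adenosine analog from Cordyceps fungi that lacks the 3' hydroxyl group, or with cordyceps, a preparation that the labels name without further detail. The members were chosen by measured values of these same arrays, on which they stood among the genes with the highest ratios of cordycepin over control, so their own values are a description and carry no test. The arrays represented the 3 genes by 4 probes, out of 22439 named genes and 58201 probes in all.

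The control cells received 0.1% DMSO, the cordycepin cells 60 μg/mL cordycepin and the cordyceps cells 100 μg/mL cordyceps, each for 48 h. The labels do not say whether the treated cells also received DMSO. The medium of all 3 cultures, DMEM with serum and antibiotics, also held zinc sulfate at 16.7 μM, troglitazone, an agonist of PPAR gamma, at 10 μM and nicotinamide at 10 mM. RNA of each culture was hybridized to 1 single-colour Agilent array (n = 1 per condition), so no value below has a replicate error or a p-value, and a difference between conditions cannot be told apart from a difference between 3 single cultures. The RNA came from whole cultures, in which more expressing cells and more RNA per cell cannot be told apart.

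SAA1 and SAA2 encode the acute phase proteins that liver cells release in large amounts during inflammation and that then travel on high-density lipoprotein (HDL). Interleukin 6, interleukin 1 and tumor necrosis factor are their known inducers, and the factors C/EBP, NF-kB and STAT3 act on their promoters. SAA4 encodes the constitutive member, which responds little in the classical acute phase reaction. Outside the liver, epithelial and tumor cells can also express these genes, and the secreted proteins act on formyl peptide and Toll-like receptors of other cells.

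Of the members, the RefSeq promoter table matched SAA4 alone (1 of 3), and the 250 bases before its start are shown because they belong to the gene described as constitutive. They lie at chr11:18236803-18237052 of GRCh38.p14 on the minus strand and are printed in the direction of the gene. Capitals mark each match to the C/EBP motif, searched as TTNNGNAA and as TTNCNNAA for the other strand.

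SAA4: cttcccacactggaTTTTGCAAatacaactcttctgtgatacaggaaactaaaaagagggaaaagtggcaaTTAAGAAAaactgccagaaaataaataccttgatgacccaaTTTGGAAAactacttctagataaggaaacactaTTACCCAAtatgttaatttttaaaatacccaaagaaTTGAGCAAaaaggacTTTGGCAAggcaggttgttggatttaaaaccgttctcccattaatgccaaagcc

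The window held 6 matches, none overlapping another. At least 1 match stood in 33.2% of the 35116 windows of the same length, and 6 or more stood in 18 of them (0.051%). The motif is rich in A and T, and the SAA4 window had 35.6% G and C against a median of 58.0% over all windows. Both strands were also searched for STAT (TTCNNNGAA), AP-1 (TGANTCA), the TATA box (TATAAA) and the NF-kB consensus, and no match to these letters lay in the window. These motifs were present in 6.57%, 6.57%, 10.72% and 9.96% of all windows.

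There were 62976 spots per array, 60901 of them non-control, and 0 were saturated. Between 24513 and 28501 probes per array were well above background, the scanner software's own call. A corner of the arrays, rows 241 to 384 and columns 83 to 164, had a local background marked as an outlier for 11.2% of its spots on the cordyceps array and for 0% on the others. None of the 4 SAA probes lay there (0 of 4), and none of their spots was marked as an outlier. Among the other genes named below, those measured by a spot in this corner are pointed out. Signals are given as the scanner software's processed signal, in arbitrary units with its own error estimate. Ratios were taken after each array was divided by its 75th percentile, which was 260.1 for control, 224.3 for cordycepin and 260.2 for cordyceps.

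SAA1 had a signal of 709.9 ± 71.1 in control, 22988 ± 2299 with cordycepin and 1083 ± 109 with cordyceps. The cordycepin array stood far above the others, and control and cordyceps lay close together. The scaled level was 37.6-fold higher with cordycepin than in control, a log2 ratio of 5.23 with an error of 0.20 from the 2 spots. With cordyceps it was 1.52-fold higher, a log2 ratio of 0.61 ± 0.20. Without any scaling the ratio of cordycepin over control was 32.4.

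SAA2 was measured by 2 probes, one for each of its transcripts on the array design. The first, for NM_030754, gave 473.8 ± 47.6 in control, 29481 ± 2948 with cordycepin and 1059 ± 106 with cordyceps. It was again highest on the cordycepin array, with cordyceps second. Its ratio over control was 72.2-fold with cordycepin, a log2 ratio of 6.17 ± 0.20, and 2.23-fold with cordyceps, a log2 ratio of 1.16 ± 0.20.

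The second SAA2 probe, for NM_001127380, gave 15.2 ± 5.25 in control, 558.4 ± 56.1 with cordycepin and 27.6 ± 9.64 with cordyceps. Only the cordycepin value was well above background. The other arrays therefore set a bound, taken against the higher of the probe's own signal and the dimmest signal still called well above background there. The level with cordycepin was at least 34.7-fold higher than in control and at least 18.8-fold higher than with cordyceps. For cordyceps against control no ratio was read from this probe.

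SAA4 gave the dimmest of the signals measured on all 3 arrays, with 81.9 ± 9.31 in control, 1164 ± 116 with cordycepin and 111.3 ± 13.8 with cordyceps. The order of the arrays was that of SAA1 and SAA2. Its level was 16.5-fold higher with cordycepin, a log2 ratio of 4.04 ± 0.22, and 1.36-fold higher with cordyceps, a log2 ratio of 0.44 ± 0.24. With another background method, normexp, and an offset of 50 added to each signal, these log2 ratios were 3.19 and 0.23. The part of the offset in this change was not tested.

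**Figure D1:**
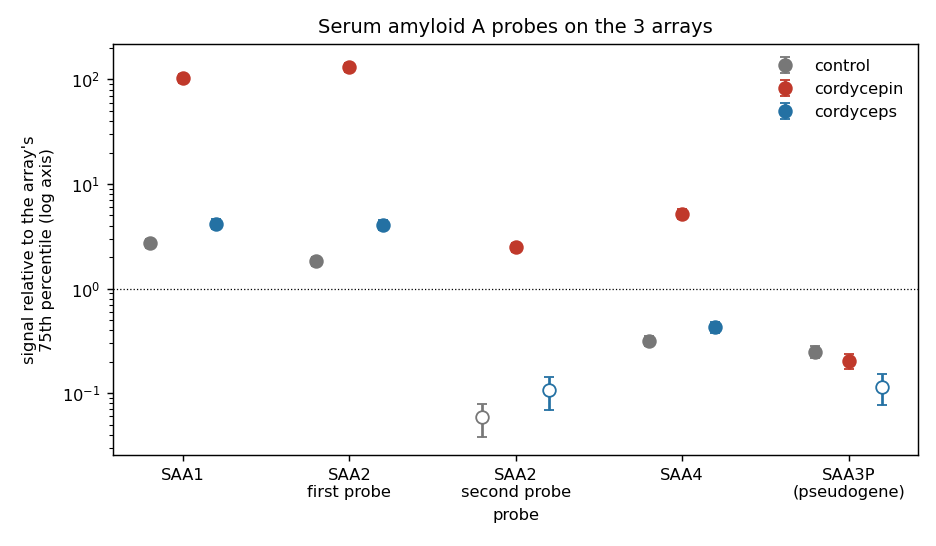
Signal of the 4 serum amyloid A probes and of the SAA3P pseudogene probe on the control, cordycepin and cordyceps arrays, each divided by its array's 75th percentile (log axis). Bars are the scanner software's error of 1 spot, and open circles were not well above background. The cordycepin point is the highest of the 3 for each of the 4 SAA probes and not for SAA3P.

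Against cordyceps, at 100 μg/mL and thus at another dose, the cordycepin array was 24.6-fold higher for SAA1, 32.3-fold for SAA2 by its first probe and 12.1-fold for SAA4. The values over control share the control array, so they are not independent of one another. Spots printed within 5 rows and 5 columns of the member spots had median log2 ratios between -0.18 and 0.12 over the 3 comparisons, so the high values were not shared by their surroundings on the arrays.

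Technical spread of 2 kinds stands beside these ratios. The spread between 2 probes of the same gene was taken as an SD per probe. For cordycepin over control, its robust estimate was 0.26 and its plain estimate 0.37 on the log2 scale, over 3675 genes. For cordyceps over control these were 0.20 and 0.36, over 3418 genes. Probes printed 10 times had a median SD of 0.05 to 0.06 for the log2 signal of a single array, not for a ratio of 2 arrays. The log2 ratios of the members with cordycepin exceeded both many times over. With cordyceps, the log2 ratios were 1.16 for SAA2, 0.61 for SAA1 and 0.44 for SAA4. Those of SAA1 and SAA4 were within 2 of the plain SD of 0.36 from 0, so they were not clear of the spread between probes. That of SAA4 was also within 2 of its own spot errors of 0, and under normexp it was 0.23, below the plain SD. None of these spreads includes the difference between cultures.

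The members differed among themselves in the size of the ratio. With cordycepin, the log2 ratio of SAA2 by its first probe was 0.94 ± 0.29 above that of SAA1, and that of SAA1 was 1.19 ± 0.30 above that of SAA4. The second SAA2 probe, with a control signal not well above background, was 0.18 ± 0.56 above SAA1 and 0.76 ± 0.56 below the first probe. These errors come from the spots and leave out the spread between probes of a gene. With cordyceps, SAA2 by its first probe was 0.55 ± 0.29 above SAA1, and SAA1 and SAA4 differed by 0.17 ± 0.32, within the error of the spots. By the first SAA2 probe, the order SAA2, SAA1, SAA4 was the same in both comparisons, which share the control array. Whether SAA2 and SAA1 differ as genes or only as probes cannot be told apart. SAA1 and SAA2 are near-identical in their coding sequence, and the files hold no probe sequences, so how far each probe also reports the other gene was not tested.

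Among the 14600 named genes measured on both arrays, SAA2 ranked 1st, SAA1 2nd and SAA4 4th by the ratio of cordycepin over control. By the ratio of cordyceps over control they ranked 308th, 984th and 1525th of 13889. By cordycepin over cordyceps they ranked 1st, 2nd and 7th of 13802. At a threshold of 2-fold, 3 of 3 members were called higher with cordycepin than in control, where 5.95% of named genes were called higher and 3.57% lower. With cordyceps, 1 of 3 was called, SAA2, where 4.19% were higher and 3.15% lower. Against cordyceps 3 of 3 were called, where 7.75% were higher with cordycepin and 5.57% lower. The members were chosen on these contrasts, and nothing is read from their counts.

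**Figure D2:**
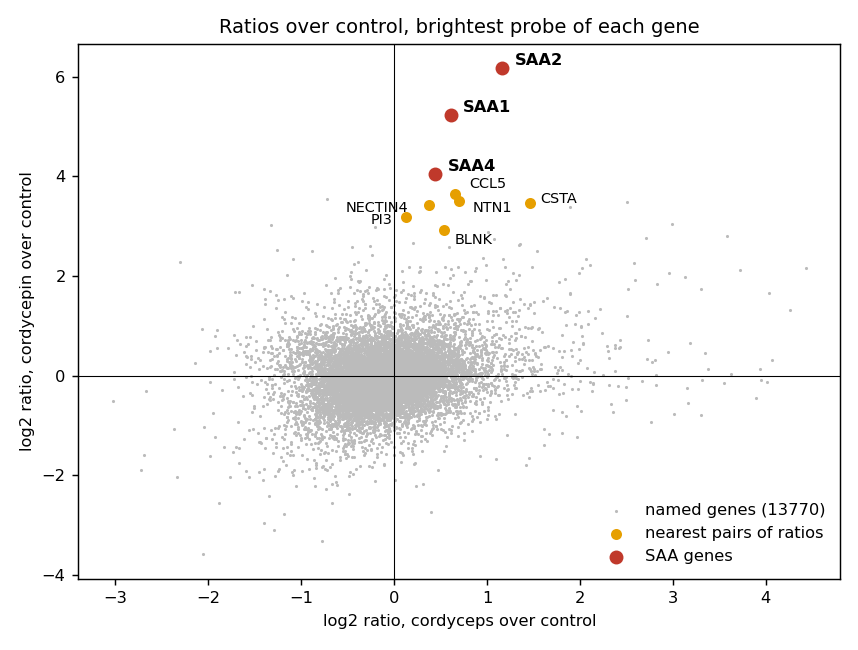
Log2 ratio of cordycepin over control (y axis) against that of cordyceps over control (x axis) for the 13770 named genes measured on all 3 arrays, by their brightest probe. SAA2, SAA1 and SAA4 lie at the top of the plot between 4.04 and 6.17 on the y axis and between 0.44 and 1.16 on the x axis, with the genes nearest to them below.

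The genes whose pair of log2 ratios over control came nearest to that of SAA4, by Euclidean distance, were CCL5, NTN1, NECTIN4, PI3 and BLNK. CCL5, a chemokine that attracts T cells, had signals of 85.5 in control, 929.4 with cordycepin and 134.8 with cordyceps, 12.6-fold and 1.58-fold over control, at a distance of 0.44. NTN1, the guidance protein netrin 1, gave 79.4, 774.3 and 128.5. NECTIN4, an epithelial adhesion protein, gave 70.7, 653.7 and 91.6. PI3, the elastase inhibitor elafin, gave 316.7, 2484 and 347.1. BLNK, a signaling adaptor of B cells, has a spot in the corner described above. For SAA1 the nearest were SAA2 and SAA4, then CCL5, NTN1 and NECTIN4 at distances of 1.58, 1.73 and 1.82. For SAA2 they were SAA1 and SAA4, then CCL5, NTN1 and CSTA, the cysteine protease inhibitor cystatin A, at 2.57, 2.71 and 2.72. The genes outside the family were thus nearest to SAA1 and SAA2 without being close to them. Each of these genes was highest on the cordycepin array, which follows from their choice by these ratios.

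The genes around the SAA cluster did not share its pattern. The arrays held no probe assigned to the SAA2-SAA4 read-through transcript, which spans parts of both genes, so its share in their signals cannot be told apart. SAA3P, a pseudogene of the family in human, gave 64.4 ± 8.19 in control, 45.3 ± 7.37 with cordycepin and 30.0 ± 9.82 with cordyceps, the last not well above background. Its log2 ratio of cordycepin over control was -0.29 ± 0.30. SAAL1, named for its similarity to serum amyloid A and read in the corner, gave 873.1, 590.5 and 1012. Of the 10 nearest named genes with a probe, 5 on each side, 7 were measured in the comparison of cordycepin with control, with log2 ratios from -0.52 to 0.66, the latter for LDHAL6A, read in the corner. They included LDHA, the lactate dehydrogenase A gene, at 33924, 20334 and 21853 and HPS5, a gene of lysosome-related organelles, at 865.9, 1104 and 1025. In each of the 3 comparisons, 0 of the 7 measured were called at 2-fold in either direction. SAA3P, measured in control and not with cordyceps, was at least 1.87-fold lower with cordyceps. The other 3, SLC25A51P4, MRGPRX4 and MRGPRX3, the last with its spot in the corner, were not well above background on any array.

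**Figure D3:**
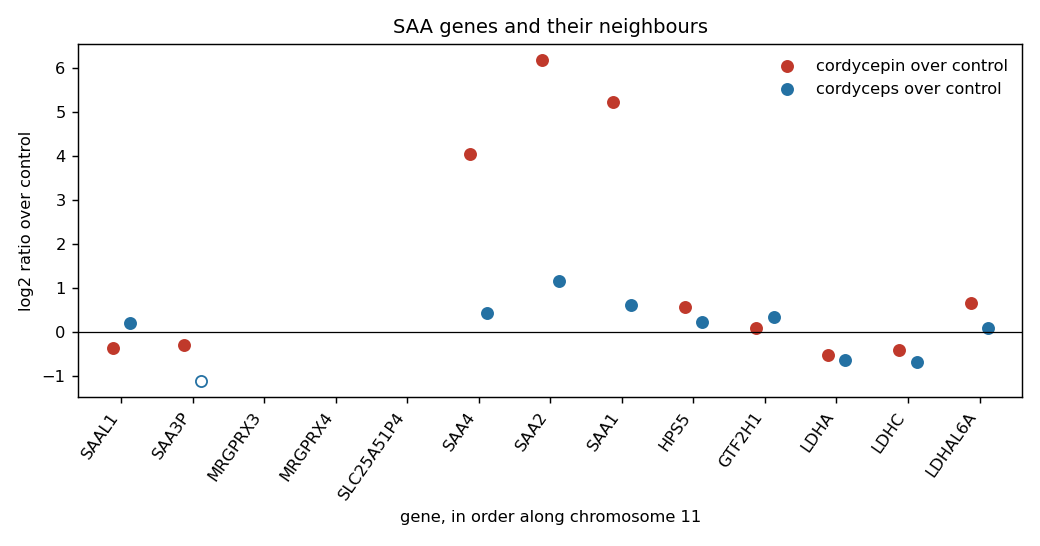
Log2 ratios over control of SAA4, SAA2 (first probe) and SAA1 and of the 5 nearest named genes with a probe on each side, in chromosomal order (positions not to scale). Genes without a point were not well above background on either array. The open circle, SAA3P with cordyceps, was measured on the control array alone. It is drawn at its log2 ratio of -1.10 and not at its bound of -0.90. The 7 measured neighbours lie between -0.52 and 0.66 with cordycepin, below the 3 SAA genes.

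Among the known inducers of the SAA genes, IL6, IL1A and TNF were higher than in control with both treatments. Of 10 inducing cytokines, 8 were measured, of which 4 were called higher and 1 lower with cordycepin, and 4 higher and 0 lower with cordyceps. Their median log2 ratio was 0.94 with cordycepin and 0.98 with cordyceps, beside -0.05 and -0.13 over all named genes measured. These medians take in CNTF, read in the corner and well above background in control alone, at its log2 ratios of -1.17 and -0.69. With cordycepin the median fell in a gap between 0.20 and 1.68, so the nearness of the 2 medians depends on this gene. Of all those genes, 5.95% were called higher and 3.57% lower with cordycepin, and 4.19% and 3.15% with cordyceps. IL6, the main inducer in liver cells, gave 194.6 in control, 556.9 with cordycepin and 1118 with cordyceps, 3.32-fold and 5.74-fold over control. It was thus highest on the cordyceps array, whereas the SAA genes were highest on the cordycepin array.

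IL1A, an interleukin 1 released by damaged cells, gave 73.0, 295.3 and 315.7, 4.69-fold and 4.32-fold over control. IL1B, its inflammasome-processed relative, gave 1014, 2809 and 1713, 3.21-fold and 1.69-fold. TNF, the tumor necrosis factor gene, gave 37.8, 147.6 and 86.7, 4.53-fold and 2.29-fold. IL1B and TNF shared with the SAA genes the order of the arrays, cordycepin above cordyceps above control. IL11, a cytokine of the interleukin 6 family, ran the other way, with 1773 in control, 580.0 with cordycepin and 5431 with cordyceps, a log2 ratio of -1.40 with cordycepin and 1.61 with cordyceps. LIF, of the same family, gave 3426, 3155 and 3635.

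Of 10 receptors of these cytokines, 9 were measured. By their brightest probes 1 was called higher, OSMR, and 2 lower with cordycepin, where 5.95% and 3.57% of all named genes were, and 0 higher and 1 lower with cordyceps, where 4.19% and 3.15% were. The medians were -0.37 and -0.44, beside -0.05 and -0.13 over all named genes measured. IL6ST, the gp130 subunit that the interleukin 6 family shares, read in the corner, gave 2172, 1197 and 1473 and was not called. IL6R, the subunit that binds interleukin 6, gave 104.4, 54.1 and 42.6, the last not well above background, and was at least 2.45-fold lower with cordyceps. IL1R1, the signaling receptor of interleukin 1, gave 307.9, 126.2 and 190.0, a log2 ratio of -1.07 with cordycepin. IL11RA, read in the corner, was lower with cordycepin, with a log2 ratio of -1.01. OSMR, the oncostatin M receptor, gave 1089, 2109 and 994.3 by its brightest probe, a log2 ratio of 1.17 with cordycepin, whereas its other probe, in the corner, gave 280.0, 118.2 and 290.5, a log2 ratio of -1.03. The 2 OSMR probes disagreed in direction, so the call of this gene rests on its brightest probe alone.

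The transcription factors that act on SAA promoters were measured for 15 of 16 genes, and 0 were called in either direction with cordycepin. The median log2 ratio was -0.12 with cordycepin and -0.03 with cordyceps, beside -0.05 and -0.13 over all named genes measured. Called higher and lower over all named genes were 5.95% and 3.57% with cordycepin, and 4.19% and 3.15% with cordyceps. CEBPB, a C/EBP factor of the acute phase, gave 32623, 34873 and 38227 over 10 spots, of which 1 lay in the corner. CEBPD gave 16955, 12247 and 12913, and STAT3, which relays interleukin 6, gave 347.3, 395.5 and 268.3. RELA, the main transactivating NF-kB subunit, gave 1207, 1121 and 1526. NFKB2, another NF-kB subunit, gave 312.9, 483.8 and 671.4, 1.79-fold with cordycepin and 2.14-fold with cordyceps over control, and was the 1 factor called with cordyceps. These are transcript levels, and the activity of the factors was not measured by the arrays.

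Among other acute phase proteins, 17 of 20 were measured. With cordycepin 4 were called higher and 3 lower, and with cordyceps 6 higher and 0 lower, at medians of 0.51 and 0.32. Over all named genes measured the medians were -0.05 and -0.13. The shares called higher and lower there were 5.95% and 3.57% with cordycepin, and 4.19% and 3.15% with cordyceps. CRP, the classical acute phase protein beside SAA, was not well above background on any array. PTX3, a pentraxin made outside the liver, gave 11.6 in control, which was not well above background, 121.1 with cordycepin and 86.7 with cordyceps. It was at least 7.53-fold higher with cordycepin and at least 4.65-fold higher with cordyceps, over 10 spots of which 2 lay in the corner.

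LCN2, which withholds siderophore-bound iron from bacteria, gave 9568, 21019 and 26033, 2.55-fold and 2.72-fold over control. The orosomucoid gene ORM2 gave 205.3, 363.5 and 790.6, 2.05-fold and 3.85-fold. Its neighbour ORM1, read in the corner and near-identical to ORM2, gave 418.3, 726.7 and 1504. SERPINA3, the antichymotrypsin gene, gave 1110, 1428 and 3411, a log2 ratio of 0.58 with cordycepin and 1.62 with cordyceps. CFB, complement factor B, gave 4100, 5041 and 11549, with log2 ratios of 0.51 and 1.49. ORM1, ORM2, SERPINA3 and CFB were thus highest on the cordyceps array, and so was LCN2, by little.

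The genes of the fibrinogen beta and gamma chains, both positive acute phase proteins, were lower with cordycepin. FGB gave 938.4, 248.4 and 563.2, a log2 ratio of -1.70 with cordycepin, and FGG gave 3869, 1138 and 2295, a log2 ratio of -1.55. CP, the ceruloplasmin gene, read in the corner, gave 2766, 1150 and 1727, a log2 ratio of -1.05, and its other probe, outside the corner, had a ratio of -0.96. The list called higher with cordycepin thus held PTX3, LCN2, ORM1 and ORM2, and the list called lower held FGB, FGG and CP.

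Of 7 negative acute phase proteins, which decline during inflammation, 6 were measured, with 0 higher and 1 lower under each treatment. The shares over all named genes were 5.95% higher and 3.57% lower with cordycepin, and 4.19% and 3.15% with cordyceps. TF, the transferrin gene, read in the corner, gave 58.4 in control and was not well above background with cordycepin, at least 2.31-fold lower. AHSG, fetuin A, read in the corner, gave 151.3, 101.4 and 61.2, a log2 ratio of -1.31 with cordyceps. ALB, the albumin gene, with its spot in the corner, was not well above background on any array.

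**Figure D4:**
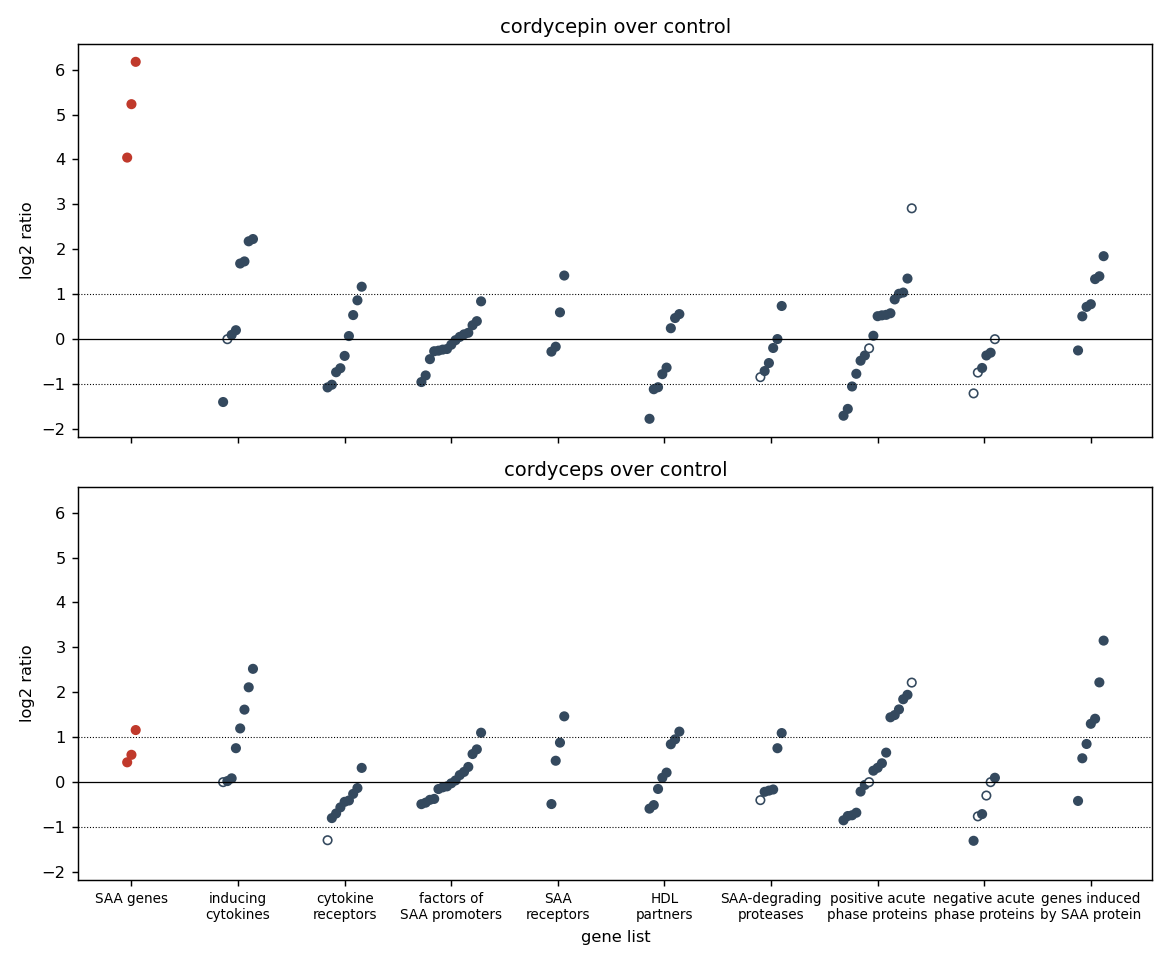
Log2 ratios over control of the 3 SAA genes (red, brightest probe) and of the measured genes of each list (dark), with cordycepin (upper panel) and with cordyceps (lower panel). Each point is 1 gene, open points are bounds from 1 array (drawn at 0 where the bound gives no difference), and dotted lines mark 2-fold. In the upper panel the SAA genes lie between 4.04 and 6.17 and no measured ratio or bound of a listed gene reaches them, whereas in the lower panel they lie between 0.44 and 1.16, within the range of the lists.

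Of 8 receptors for secreted SAA, 4 were measured. Over all named genes 5.95% were called higher with cordycepin and 4.19% with cordyceps. Among the 4 receptors, 1 was called higher with each treatment. This was TLR2, a Toll-like receptor read in the corner, with 48.6, 111.8 and 134.1 and log2 ratios of 1.42 and 1.46. FPR2, the formyl peptide receptor best known for binding SAA, was not well above background on any array. SCARB1, the HDL receptor SR-BI, gave 44786, 31871 and 31959 and was not called.

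Of 7 genes that the SAA protein is known to induce in responding cells, 7 were measured, with 3 called higher with cordycepin and 4 with cordyceps, and 0 lower in either. The medians were 0.78 and 1.30, beside -0.05 and -0.13 over all named genes measured. Among all named genes, 5.95% were called higher and 3.57% lower with cordycepin, and 4.19% and 3.15% with cordyceps. CCL20, a chemokine for dendritic and Th17 cells, gave 1551, 4812 and 2242, a log2 ratio of 1.85 with cordycepin. CCL2, a monocyte chemokine, gave 4213, 9590 and 3155 over 10 spots, of which 5 lay in the corner, and its log2 ratio with cordycepin was 1.40 with them and 1.39 without them. CSF3, the granulocyte growth factor, gave 45.3, 98.6 and 211.0, log2 ratios of 1.34 and 2.22. CXCL8, the neutrophil chemokine interleukin 8, gave 1092, 1615 and 2905, log2 ratios of 0.78 and 1.41. IL23A, a subunit of interleukin 23, gave 299.3, 216.8 and 2658 and was thus high on the cordyceps array alone.

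HDL partners of SAA, the apolipoproteins, enzymes and transporters of the particle, were measured for 8 of 11 genes. With cordycepin 0 were called higher and 3 lower, at a median of -0.71, and with cordyceps 1 higher and 0 lower, at a median of 0.16. All named genes measured had medians of -0.05 and -0.13. Their shares called higher and lower were 5.95% and 3.57% with cordycepin, and 4.19% and 3.15% with cordyceps. ABCG1, a cholesterol exporter, gave 286.9, 114.3 and 515.0, log2 ratios of -1.11 and 0.84. ABCA1, the exporter that forms nascent HDL, gave 526.6, 264.7 and 1149, log2 ratios of -0.78 and 1.12. APOM gave 831.7, 341.7 and 584.1 by its brightest probe, log2 ratios of -1.07 with cordycepin and -0.51 with cordyceps. Its other probe, in the corner, gave 258.4, 97.8 and 810.4, log2 ratios of -1.19 and 1.65, so the probes disagreed in direction with cordyceps. PON1, the HDL esterase paraoxonase 1, read in the corner, had a log2 ratio of -1.77 with cordycepin. APOA1, the main protein of HDL, gave 70.8, 72.3 and 75.8. Of 8 proteases that degrade SAA, 6 were measured, 0 were called with cordycepin, and 1, the collagenase gene MMP1, was called higher with cordyceps at 29.6, 25.6 and 63.1, over 10 spots of which 1 lay in the corner.

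Markers of the labelled cell type and of other SAA-producing or SAA-inducing cells were read from the same arrays. Of 5 epithelial markers, 5 were well above background on each array, with summed signals of 289123, 324904 and 206372. KRT18 carried most of these epithelial sums with 240731, 264983 and 175618. EPCAM gave 1066, 322.8 and 742.0 and was called lower with cordycepin, at a log2 ratio of -1.51. KRT19 gave 1451, 1523 and 611.9 and was called lower with cordyceps, at a log2 ratio of -1.25. With each treatment the other 4 were not called, and 0 were called higher. Of 5 alveolar type II markers, 3 were well above background in control, 2 with cordycepin and 0 with cordyceps, at summed signals of 169.4, 123.3 and 109.7. These counts depend on the floor of each array. The dimmest signal called well above background was 18.6 in control, 21.8 with cordycepin and 34.5 with cordyceps. NKX2-1 gave 22.7, 38.7 and 33.5, so its cordyceps signal was above that of control but not well above background. The surfactant genes SFTPA1 and SFTPB were at background throughout. Of 5 hepatocyte markers, 3, 2 and 2 were well above background, with summed signals of 6257, 2177 and 2605. APOH, read in the corner, carried these sums with 6054, 2042 and 2519, whereas AHSG, also in the corner, gave 151.3, 101.4 and 61.2. The defining ALB, also in the corner, and APOA2 were at background on all arrays. Of the leukocyte markers, PTPRC gave 99.5, 71.8 and 72.9 and CD14 gave 3387, 1559 and 2183, each highest in control, and CD3E was at background on all arrays. Of 5 fibroblast markers only COL1A1, read in the corner, was well above background, and the sums were 367.4, 278.7 and 241.1. The part of these markers in the SAA values was not tested.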

How the data were processed

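RNA of 3 A549 cultures was measured on 1 Agilent array each. The authors deposited the scanner output, whose intensities were background-subtracted by Feature Extraction 11.5.1.1 per the file headers, and a value table equal to the mean processed signal (tolerance 0.1%) for 99.9% of probes. The study's methods name Cy3 and Cy5 and GeneSpring, whereas the files hold 1 colour (Cy3). No column of another sample was present (0).

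Log2 processed signals had the 75th percentile of the array's non-control probes subtracted, after spots marked as outliers were left out. The spots of a probe were averaged. A probe counted as measured where 50% or more of its spots passed the software's call of well above background. A gene was called at 2-fold, measured or as a bound, by its brightest probe. Names came from the GRCh38.p14 RefSeq gene table through accessions without versions (31104 probes named). The array design is on another build, so no gene coordinates were taken from the files. The members and the gene lists were chosen with earlier results of these data known. Named genes are the SAA genes, SAA3P and the read-through, called genes and defining members of 9 lists, the 5 nearest genes on each side and the 5 nearest patterns. CNTF is named for its part in a median.

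Single arrays limit the precision, and no test was run. Alternatives covered scaling, background correction, outlier spots, the value table, thresholds, detection, the corner and the median over probes. Python 3.11.15 with numpy 2.4.6 and pandas 2.3.3 and R 4.3.3 with limma 3.58.1 were used.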

Additional observations from a re-analysis of the deposited data

How the results depend on the processing

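Over 9 alternatives each, all 9 log2 ratios of the 3 SAA genes stayed above 0. With cordycepin over control they ranged from 4.97 to 5.29 for SAA1, from 5.91 to 6.22 for SAA2 by its first probe and from 3.19 to 4.09 for SAA4. Median scaling moved every ratio by more than the robust SD between probes. With cordycepin over control the ratios became 4.97, 5.91 and 3.78 for SAA1, SAA2 and SAA4. They became 0.88, 1.43 and 0.71 with cordyceps over control and 4.09, 4.48 and 3.07 with cordycepin over cordyceps. The same scaling moved the median log2 ratio of all probes measured on both arrays from -0.03 to -0.30 for cordycepin and from -0.12 to 0.15 for cordyceps over control, and the SAA ratios moved with it. Normexp, with an offset of 50, moved SAA4 to 3.19, 0.23 and 2.96 in the 3 comparisons, and the median over the 2 SAA2 probes gave 5.79 for cordycepin over control, which takes in a control signal not well above background. At 2-fold, SAA2 stayed called with cordyceps under the 8 alternatives that read its first probe, at up to 1.43. The median over its probes, 1.01, rests in part on a probe at background on both arrays. SAA1 and SAA4 stayed below 2-fold. The listed genes called numbered 23 with cordycepin and 20 with cordyceps over control. These became 13 and 13 under normexp, 41 and 38 at 1.5-fold and 8 and 9 at 3-fold. Leaving out genes with a spot in the corner gave 15 with cordycepin and 15 with cordyceps, and leaving out only the spots in the corner, chosen after seeing the data, gave 17 and 18. No paired analysis was possible because each condition has 1 array.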

Other observations

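A probe for the noncoding transcript named lnc-SAA2-2:1 on the array design was singled out after its values were seen. It gave 9.95 ± 4.58 in control, 11.1 ± 5.28 with cordycepin and 243.0 ± 25.6 with cordyceps, where alone it was well above background, at least 13.0-fold over control. Its spot lay in the corner, and its local background on the cordyceps array was marked as an outlier. The part of the corner in this value was not tested.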
